A study of Mus musculus with 18 samples.

Results

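Mitochondrial chaperones and proteases are the proteins that fold newly imported mitochondrial polypeptides and cut up those that are damaged or surplus. The members were chosen by name, as the rows of the gene table for Hspd1, Hspe1, Hspa9, Trap1, Lonp1, Clpp, Clpx, Htra2, Yme1l1 and Afg3l2, and all 10 were found among the 55270 genes of the table. All 10 also passed the filter on low values, which kept 19443 genes for testing. Messenger RNA was measured by poly-A RNA sequencing in the substantia nigra, the midbrain nucleus that holds the dopaminergic neurons lost in Parkinson's disease. The 18 mouse libraries form 3 groups of 6: intact tissue labelled WT, tissue given an adeno-associated virus (AAV) for green fluorescent protein (AAV-GFP), and tissue given an AAV for SIRT3, the main deacetylase of mitochondria (AAV-SIRT3). Per the labels' protocols, RNA was taken from mice aged 3 months, 1 month after the virus. Strain, sex, virus serotype, promoter and dose are not given in the sources used here, nor whether intact mice had a sham injection. The labels number the samples of a group as replicates without naming animals, so the p-values measure the spread between these samples.

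Proteins enter mitochondria unfolded and are pulled into the matrix by mortalin, the Hsp70 encoded by Hspa9. Many then fold inside the barrel formed by the chaperonin HSP60 (Hspd1) and its lid HSP10 (Hspe1), while Trap1 is the mitochondrial relative of Hsp90. Matrix proteins that misfold or are no longer needed are degraded by LONP1 (Lonp1) and by the protease ClpP (Clpp), which the unfoldase ClpX (Clpx) feeds. Membrane proteins are handled by the AAA proteases YME1L (Yme1l1), which faces the intermembrane space, and AFG3L2 (Afg3l2), which faces the matrix, and HTRA2 (Htra2) is a serine protease of the intermembrane space. Neurons depend strongly on this system, and inherited defects of several of its members cause neurological disease.

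Values are normalised reads, that is reads per gene divided by a size factor of each library. Depth was 47182529 to 64728587 reads per library, and the members had from 727 reads (Htra2) to 17976 reads (Hspa9) in a library, so that counting error was at most 3.71% for any member. All 9 markers of dopaminergic neurons were detected in every group, with a summed level of 41421 to 57159 normalised reads in intact tissue, from 36532 to 47628 with AAV-GFP, and from 42682 to 50407 with AAV-SIRT3. Sirt3 itself was 1824 ± 66.3, 1775 ± 92.4 and 1937 ± 79.4 normalised reads (SD, n = 6 each), and its difference between AAV-SIRT3 and AAV-GFP did not pass the threshold (0.13 on the log2 scale, limma, adjusted p = 0.183). Some libraries stood apart. The summed level of 7 thalamic neuron markers ran from 41182 to 83084 in intact libraries, with replicates 1, 3 and 5 lowest, against 69724 to 80745 in AAV-GFP and 66647 to 88463 in AAV-SIRT3. The rank correlation between transcript length and the level of a gene relative to its mean was 0.095 to 0.206 in intact libraries, but -0.343 in AAV-GFP replicate 2, -0.257 in AAV-SIRT3 replicate 5 and -0.341 in AAV-SIRT3 replicate 6.

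Against intact tissue, AAV-SIRT3 libraries had more RNA of the co-chaperonin Hspe1, of both parts of the ClpXP protease, Clpp and Clpx, and of the matrix Hsp70 Hspa9. The rises were small, from 6.43% for Hspa9 to 17.8% for Hspe1. These 4 of the 10 members passed an adjusted p of 0.05 over all genes in limma and all 4 were higher, where 11.3% of all tested genes were called higher and 10.3% lower in this comparison. Another 5 members lay above 0 without passing and Htra2 lay below 0. The median log2 fold change of the members was 0.08, beside -0.0049 for all genes. In 3 members, Hspe1, Clpx and Lonp1, every AAV-SIRT3 library was above every intact library, which held for 5.01% of all genes. All 4 calls were lost when the thalamic marker score was added as a covariate, and also without the 3 intact libraries of lowest score. Calls over all 19443 genes fell from 4214 to 1738 and 1686. In each of these fits 5 of the 10 members were under an unadjusted p of 0.05 in limma, as were 5054 and 5111 genes. The fold changes of Hspe1 (0.20 and 0.21) and Clpp (0.22 and 0.21) stayed close to their values from all libraries. Under the same settings Clpx was at 0.12 and 0.13 and Hspa9 at 0.087 and 0.097.

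AAV-SIRT3 against AAV-GFP sets 2 groups given a virus against each other. Effects of SIRT3 and of GFP cannot be told apart in this comparison. None of the 10 members passed it, where 0.113% of all genes did. Only Clpp, at 0.13 (95% interval 0.012 to 0.24, limma, adjusted p = 0.285), was under an unadjusted p of 0.05, as were 15.2% of all genes. It was 0.077 without AAV-SIRT3 replicate 6 (limma, adjusted p = 0.498) and 0.060 with length and GC trends removed, and under both settings 0 members were under an unadjusted p of 0.05. Neither edgeR nor DESeq2 called a member either. The intervals bound what could have been missed: the widest upper limits were 0.24 for Clpp and 0.23 for Hspe1, and the lowest limit was -0.17, for Htra2. Without AAV-GFP replicate 2, Hspe1 moved from 0.11 to 0.16 (limma, adjusted p = 0.0826).

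AAV-GFP against intact asks what came with the virus and GFP. Again 0 of 10 members passed in limma, where 1.84% of all genes did. Clpx (0.14, SE 0.040, adjusted p = 0.0742) and Hspe1 (0.13, SE 0.060, adjusted p = 0.236) were under an unadjusted p of 0.05, as were 19.1% of all genes. Hspe1 fell to 0.080 without AAV-GFP replicate 2 (limma, adjusted p = 0.483) and to 0.095 without replicate 5 (limma, adjusted p = 0.410), and without either library Clpx was the only member under that unadjusted p. Clpx was the single member that passed in DESeq2 (adjusted p = 0.0322), no member did in edgeR, and Clpx also passed without AAV-GFP replicate 1 (0.16, limma, adjusted p = 0.0309). Both comparisons against intact use the same intact libraries, so their fold changes are not independent.

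**Figure D1:**
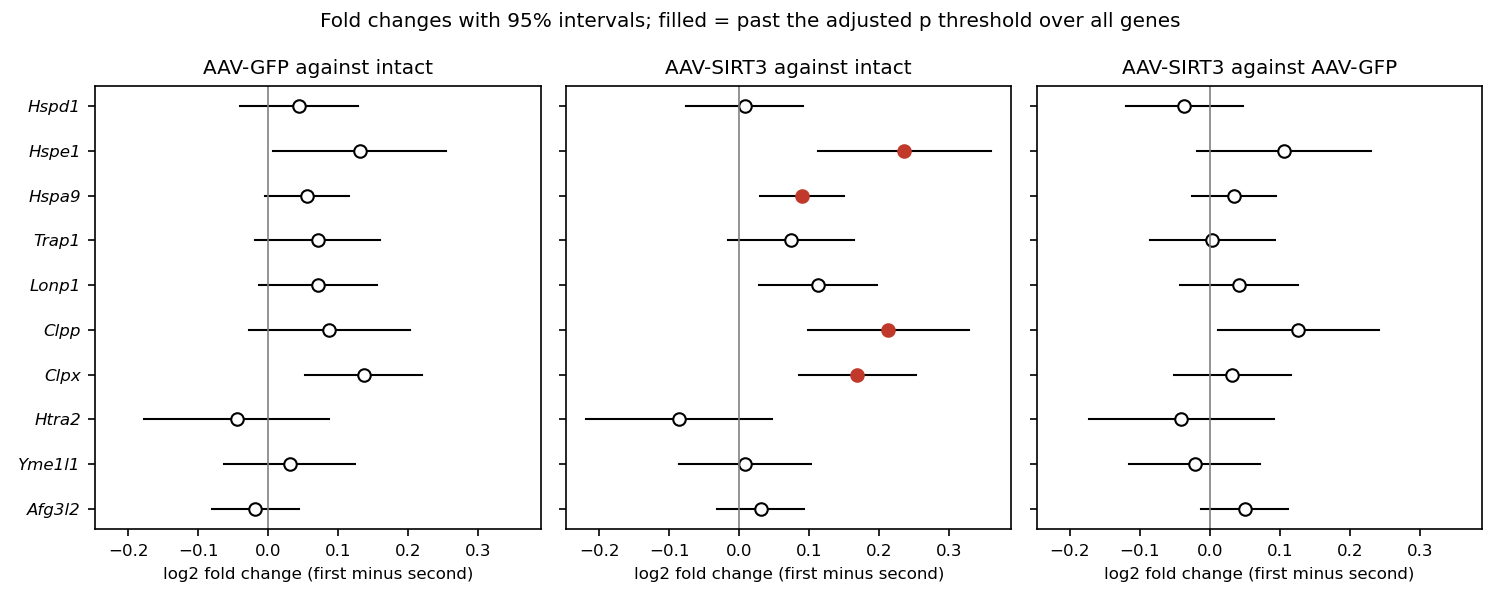
Log2 fold change of each member (horizontal axis) with its 95% interval from limma in the 3 comparisons of 6 against 6 libraries, filled where the adjusted p over 19443 genes is under 0.05. Filled points appear in the AAV-SIRT3 against intact panel alone, for Hspe1, Hspa9, Clpp and Clpx.

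Levels of different genes were compared per kilobase of the longest coding transcript. On that scale 3 folding proteins led in every library: Hspa9 with a mean of 4964 normalised reads per kilobase, Hspd1 with 4837 and Hspe1 with 4391 over 18 libraries. Their ranges overlapped and their order varied between libraries, so the 3 were not separated. They stood at percentiles 96.9, 96.8 and 96.4 of the 18855 tested genes with a length. Clpp followed at 2380 and Trap1 at 1759, each with the same rank in all libraries. Afg3l2 (1583) and Lonp1 (1462) changed places in 1 library, and Yme1l1 (1282), Clpx (758.3) and Htra2 (502.2) closed the order. The peptidase Clpp was thus above its unfoldase partner Clpx on this per-length scale in all 18 libraries. The value of Hspd1 depends on the transcript assumed: with the median coding transcript, of 863 bases in place of 2423, it was 13581 and Htra2 was 663.8.

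Hspd1 and Hspe1 sit head to head on chromosome 1 of GRCm38. Hspd1 runs from 55077835 to 55088243 on the minus strand and Hspe1 from 55088132 to 55091307 on the plus strand, so that their first exons overlap. The counting is not stated to have used strand, and reads in that overlap could be assigned to either gene. A stretch by their starts is printed here because both genes have a start near it and it holds letters of the heat shock element, the repeated motif that heat shock factor HSF1 binds. In the RefSeq promoter table (GRCm38.p6) the Hspe1 window, 300 bases from 250 before to 50 after the start, held TTCNNGAA at positions -89 and -79, and GAANNTTC at -84, across both. Both motifs read the same on either strand. One of the Hspd1 windows shares 285 bases with it and so holds the same matches, and the other holds none. The stretch lies at chr1:55088053-55088082 on the plus strand, upstream of Hspe1 and inside exon 1, annotated as 5′ UTR, of transcript Hspd1-202. Capitals mark TTCNNGAA:
Hspe1 and Hspd1: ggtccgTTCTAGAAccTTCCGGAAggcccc
TTCNNGAA occurred in 8.52% of all 32851 windows and at least 2 matches in 0.524%. Of the 7 members with a window that could be used, Clpp held 1 match, at position 34 after its start, and Lonp1, Clpx, Trap1 and Yme1l1 held none in these 300 bases.

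Hspe1, the HSP10 lid, differed most among the members between AAV-SIRT3 and intact. Its lowest, median and highest values were 2871, 3124 and 3259 normalised reads in intact libraries, 3021, 3285 and 4051 in AAV-GFP, and 3462, 3653 and 3877 in AAV-SIRT3. AAV-SIRT3 and intact libraries did not overlap, whereas AAV-GFP libraries spread over both, with replicates 2 and 5 high. The log2 fold change against intact was 0.24 (SE 0.060, limma, adjusted p = 0.00815). The call held whichever of the 18 libraries was dropped, at 0.21 to 0.25. With trends of transcript length and GC content removed it was 0.17 (adjusted p = 0.0368).

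Hspd1, its HSP60 partner, did not pass in any comparison. It ran from 11180 to 12116 with a median of 11561 normalised reads in intact libraries, from 11328 to 12770 (median 11782) in AAV-GFP, and from 10640 to 12172 (median 11778) in AAV-SIRT3. The 3 groups overlapped throughout, and AAV-SIRT3 replicate 6 was the lowest library. AAV-SIRT3 against intact gave 0.0078 (95% interval -0.076 to 0.092, limma, adjusted p = 0.912), and 0.034 without that library (limma, adjusted p = 0.589).

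The ratio of the pair therefore differed between groups. There were 0.269 ± 0.0108 normalised reads of Hspe1 per read of Hspd1 in intact libraries, 0.286 ± 0.0223 with AAV-GFP and 0.315 ± 0.0150 with AAV-SIRT3 (SD, n = 6 each). The lowest AAV-SIRT3 ratio, 0.304, was above the highest intact ratio, 0.277. On the log2 scale the difference was 0.23 (SE 0.036), with an exact two-sided permutation p of 0.00216, the smallest that 6 against 6 allows, and 0.0130 adjusted over 6 ratio tests. With length and GC trends removed it was 0.16 (exact permutation p = 0.00216, adjusted p = 0.0130). Without the 3 intact libraries of lowest thalamic score it was 0.22, with an exact permutation p of 0.0238. AAV-SIRT3 against AAV-GFP gave 0.14 (exact permutation p = 0.0325, adjusted p = 0.0974) and AAV-GFP against intact 0.086 (adjusted p = 0.251). Without AAV-GFP replicate 2 these were 0.18 and 0.053, and without AAV-SIRT3 replicate 6 AAV-SIRT3 was 0.12 above AAV-GFP and 0.20 above intact. The ratio test was chosen after the values of both genes were seen.

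**Figure D2:**
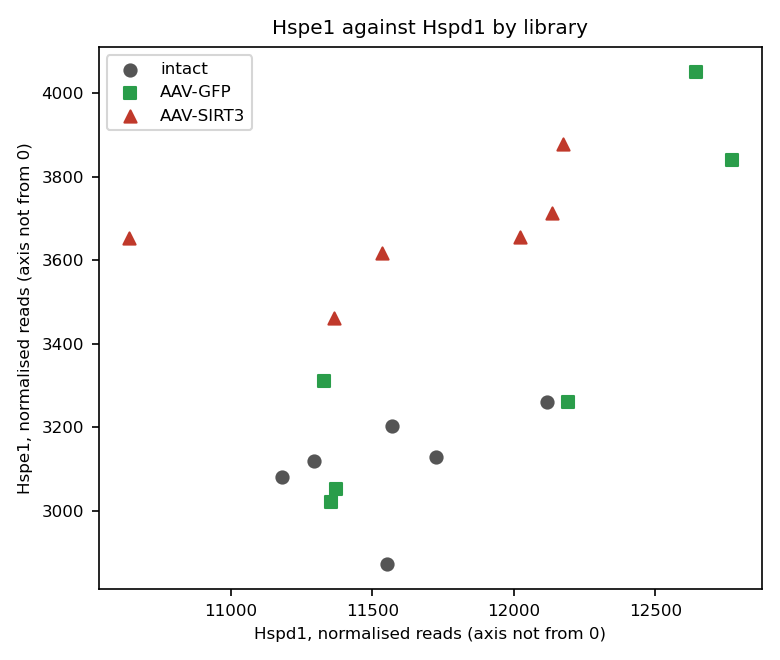
Normalised reads of Hspe1 (vertical axis) against Hspd1 (horizontal axis) in each of the 18 libraries, by group. Along the range of Hspd1, AAV-SIRT3 libraries lie higher in Hspe1 than intact libraries, and AAV-GFP replicate 2 is the highest point at 4051.

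Hspa9, which encodes mortalin, had the highest normalised reads of the members. It was 13991 at the lowest, 14686 at the median and 15093 at the highest in intact libraries, 14763, 15284 and 15601 in AAV-GFP, and 15052, 15570 and 15972 in AAV-SIRT3. Of 36 library pairs with intact, AAV-SIRT3 was above in 35, and the fold change was 0.090 on the log2 scale (SE 0.029, limma, adjusted p = 0.0315). This call was lost in 6 of the 18 fits without one library, namely without intact replicate 3, 4 or 5 or AAV-SIRT3 replicate 1, 2 or 3, with adjusted p up to 0.0804. It was also lost in edgeR (adjusted p = 0.0594) and when all genes above 0 were tested (limma, adjusted p = 0.0700). Hspa9 lies on chromosome 18 from 34937414 to 34954357.

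Trap1 spanned 3674 to 4196 normalised reads (median 4001) in intact, 4060 to 4273 (4112) in AAV-GFP and 3780 to 4528 (4132) in AAV-SIRT3 libraries. AAV-SIRT3 held both the highest value, in replicate 1, and one close to the intact minimum, in replicate 3. Its change against intact, 0.074 (SE 0.043, limma, adjusted p = 0.231), did not pass. Trap1, on chromosome 16 from 4039971 to 4077827, overlaps Dnase1 on the other strand, which had a mean of 419.5 normalised reads.

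Of the matrix proteases, Clpx had the lowest adjusted p of the members. Its lowest, median and highest values were 1920.5, 2062 and 2105 normalised reads in intact libraries, 2062, 2220 and 2409 in AAV-GFP, and 2194, 2304 and 2360 in AAV-SIRT3. No AAV-SIRT3 library overlapped the intact ones, and 5 of the 6 AAV-GFP libraries were above all of them as well. AAV-SIRT3 against intact was 0.17 (SE 0.040, limma, adjusted p = 0.00578), and 0.18 (adjusted p = 0.00385) with length and GC trends removed. With the thalamic score as covariate it was 0.12 (adjusted p = 0.124).

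Clpp, the peptidase that ClpX feeds, rose by 0.21 in the same comparison (SE 0.055, limma, adjusted p = 0.00949). It was 2085, 2140 and 2310 normalised reads at the lowest, median and highest in intact, 2195, 2303 and 2495 in AAV-GFP and 2292, 2453 and 2991 in AAV-SIRT3 libraries. The groups overlapped slightly, with AAV-SIRT3 higher in 34 of 36 pairs. The 2 highest libraries, AAV-SIRT3 replicates 6 and 5, were 18.1% and 6.71% above their group mean, and they are 2 of the 3 libraries with the strongest length trend. Without AAV-SIRT3 replicate 6 the fold change was 0.16 and still passed. With length and GC trends removed from all libraries it was 0.10 and did not (adjusted p = 0.0750). The log2 ratio of Clpp to Clpx did not differ in any comparison, with AAV-SIRT3 against intact at 0.045 (exact permutation, adjusted p = 0.636).

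Lonp1, the other matrix protease, had 3992, 4148 and 4251 normalised reads at the lowest, median and highest in intact, 4163, 4289 and 4701 in AAV-GFP and 4279, 4347 and 4980 in AAV-SIRT3 libraries. Each AAV-SIRT3 library was above each intact one, but the fold change of 0.11 (SE 0.041, limma, adjusted p = 0.0517) missed the threshold. It passed under 6 of 31 alternatives: DESeq2 (adjusted p = 0.0448), TMM factors, a mean of at least 50, array weights, and the fits that dropped AAV-GFP replicate 2 (limma, adjusted p = 0.0333) or replicate 3 of AAV-SIRT3 (0.0466). Its highest library was AAV-SIRT3 replicate 6, at 11.4% above the group mean, and without it the fold change was 0.081 (limma, adjusted p = 0.130). With length and GC trends removed the value was 0.058 (adjusted p = 0.213).

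The membrane proteases showed no call. Yme1l1 spanned 5640 to 6236 normalised reads in intact, 5681 to 6456 in AAV-GFP and 5269 to 6506 in AAV-SIRT3 libraries. AAV-SIRT3 against intact was 0.0087 (SE 0.045, limma, adjusted p = 0.913), and 0.046 without AAV-SIRT3 replicate 6, its lowest library (limma, adjusted p = 0.448). Yme1l1 has the longest transcript of the members, of 4707 bases, and with length and GC trends removed it was 0.12 and passed (adjusted p = 0.00713). Afg3l2, on chromosome 18 from 67404764 to 67449172, had 4739 to 5018, 4617 to 4952 and 4845 to 5116 normalised reads in intact, AAV-GFP and AAV-SIRT3. Its change against intact was 0.031 (95% interval -0.031 to 0.093, adjusted p = 0.489).

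Htra2, the intermembrane space protease, was the one member below 0 in all 3 comparisons, although AAV-SIRT3 against AAV-GFP turned to 0.0013 without AAV-GFP replicate 2. It had 840.3 to 934.1 normalised reads in intact, 754.5 to 997.6 in AAV-GFP and 776.7 to 870.8 in AAV-SIRT3 libraries, and AAV-GFP replicates 1 and 2 were its highest. AAV-SIRT3 was higher than intact in 4 of 36 pairs and did not pass (-0.086, SE 0.064, limma, adjusted p = 0.357), and with length and GC trends removed it was -0.18 and passed (adjusted p = 0.0459). Htra2, on chromosome 6 from 83051266 to 83055273, overlaps Loxl3 and Aup1 on the other strand. Aup1 had a mean of 2601 normalised reads, more than Htra2, so a share of its reads would weigh on this value if strand was not used.

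**Figure D3:**
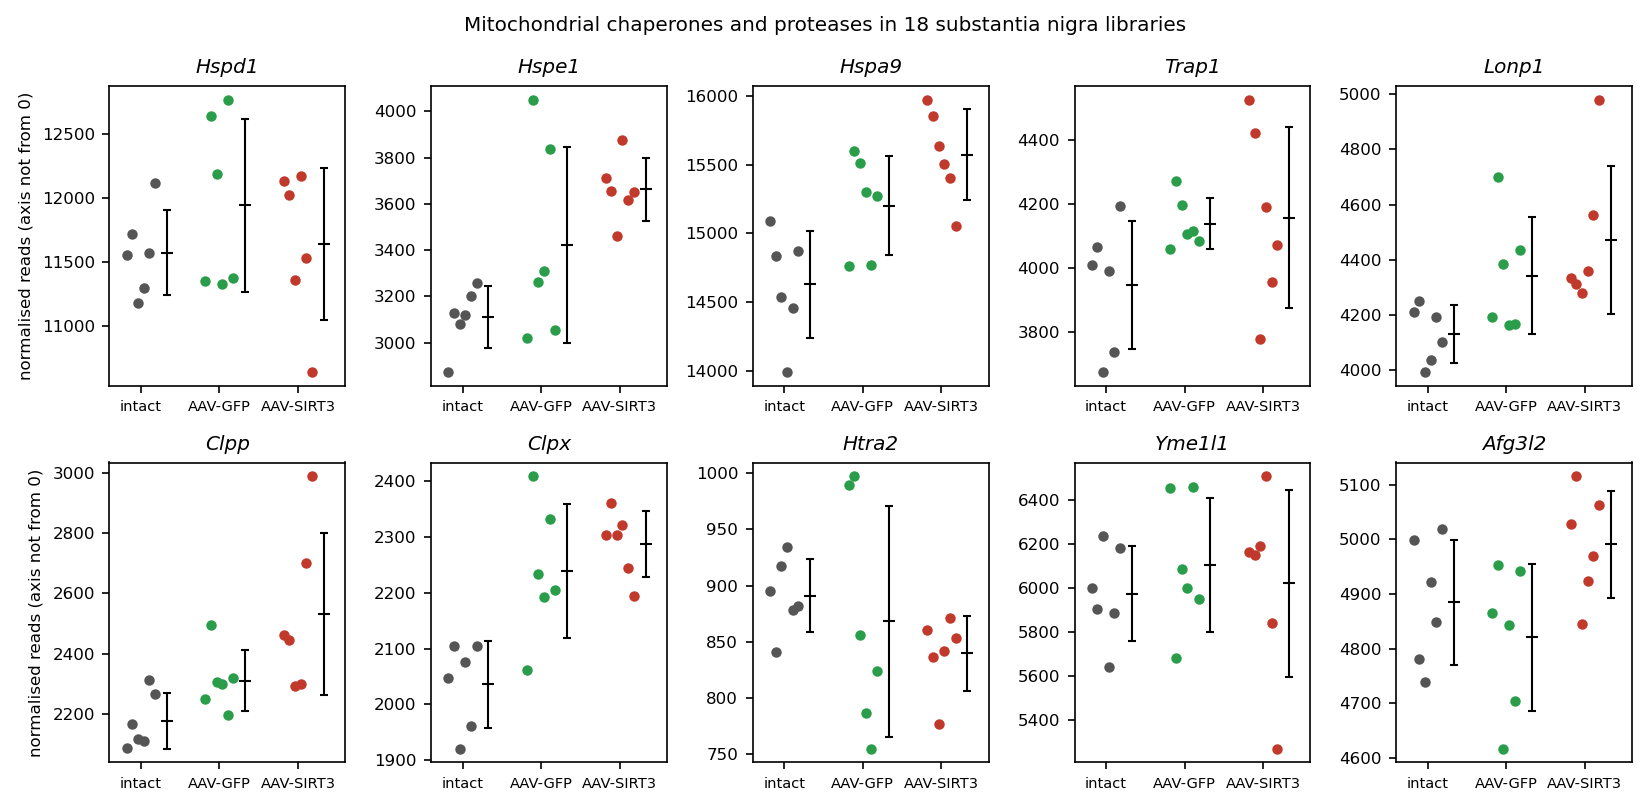
Normalised reads (vertical axes, not starting at 0) of the 10 members in each of 18 libraries, with mean and SD of 6 libraries per group beside the points, which stand in replicate order from left to right. Hspe1, Clpx and Lonp1 show no overlap between intact and AAV-SIRT3, and Clpp, Lonp1 and Yme1l1 have their most extreme point in AAV-SIRT3 replicate 6.

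Fold changes across all genes fell with transcript length, and the members were placed against that trend. In AAV-SIRT3 against intact, the rank correlation between fold change and longest transcript length across 18855 genes was -0.273. It was -0.205 when AAV-GFP was set against intact, and -0.194 between the 2 virus groups. Genes are not independent replicates, so these are descriptions. Genes of up to 1000 bases had a median of 0.094 in AAV-SIRT3 against intact, and those of 4000 to 6000 bases -0.051. Hspe1 (774 bases) and Clpp (983 bases) are the shortest members and had the highest fold changes. Clpx (2885 bases) and Hspa9 (3049 bases) are longer than Hspe1 and Clpp, and both kept their call with the trends removed. The median was 0.032 for genes of 2000 to 3000 bases and -0.0062 for those of 3000 to 4000 bases. Under that correction 5 members passed: Hspe1, Clpx, Hspa9 and Yme1l1 higher, and Htra2 lower, where 10.8% of 18855 genes were called higher and 7.56% lower.

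Cell type markers moved with the same comparison. In AAV-SIRT3 against intact, 5 of 7 thalamic and 8 of 11 microglial markers were called higher, where 11.3% of all genes were. Lower were 4 of 4 pituitary and 2 of 5 choroid plexus markers, where 10.3% of all genes were. Of 9 dopaminergic and 7 astrocyte markers, 0 were called either way. Of 6 endothelial markers 1 was called higher and 2 lower, and of 6 pan-neuronal markers 1 higher and 1 lower. Also called higher were 1 of 4 GABAergic and 1 of 6 oligodendrocyte markers. In AAV-GFP against intact, where 1.84% of all genes were called, 1 thalamic, 1 astrocyte and 6 microglial markers were higher and 4 pituitary markers lower. There 1 dopaminergic marker was lower, and the median log2 fold change of the 9 was -0.31. That median was 0.30 in AAV-SIRT3 against AAV-GFP, where 0.113% of all genes and 0 markers of these lists were called. The summed microglial level was 18084 to 20045 in intact and 21047 to 26281 in AAV-SIRT3 libraries, without overlap. It was 20294 to 25882 in AAV-GFP libraries, also without overlap with intact. Of the markers of these lists, Prl was at 0 in 3 AAV-GFP libraries and Cga in 2 AAV-GFP and 3 AAV-SIRT3 libraries, both pituitary hormone genes, and the others were above 0 in all 18 libraries. The part of markers other than the thalamic ones in the members' changes was not tested. In bulk tissue, fewer cells of a type and less RNA per cell cannot be told apart.

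Members were next compared for how they moved together between libraries of the same group. Group means were removed and Pearson's r was computed over 18 libraries for all 45 pairs, with 100000 permutations within groups and adjustment over the 45. The members did not move as one block: r ran from -0.80 to 0.82, and 31 of 45 pairs were positive. Of the 6 pairs that passed, 3 linked the folding proteins and Clpx. Hspd1 correlated with Clpx at r = 0.76 (Spearman's rho 0.78, permutation p = 0.0002 and 0.00046, adjusted p = 0.0090 and 0.0207). Hspd1 and Hspe1 had r = 0.68 (rho 0.74, permutation p = 0.00588 and 0.00223, adjusted p = 0.0441 and 0.0264). Clpx and Trap1 had r = 0.56 (rho 0.66, permutation p = 0.00276 and 0.00235, adjusted p = 0.0248 and 0.0264). Without the 2 libraries farthest out on the first gene these 3 were 0.73, 0.74 and 0.61. With length and GC trends removed they were 0.67, 0.82 and 0.33.

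The other 3 pairs formed a second set. Lonp1 and Clpp rose and fell together (r = 0.82, rho 0.73, permutation p = 0.00071 and 0.00132, adjusted p = 0.0160 and 0.0264). Yme1l1 went the other way, at r = -0.80 with Lonp1 (rho -0.65, permutation p = 0.00161 and 0.0101, adjusted p = 0.0181 and 0.0570) and -0.79 with Clpp (rho -0.69, permutation p = 0.00129 and 0.0046, adjusted p = 0.0181 and 0.0375). Without AAV-GFP replicate 2 and AAV-SIRT3 replicate 6 these values were 0.59, -0.53 and -0.54. With length and GC trends removed they were 0.65, -0.26 and -0.39. In intact libraries alone, where the length trend varied least, they were 0.26, -0.18 and 0.12. Clpp and Clpx, which form one enzyme, had r = -0.14.

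**Figure D4:**
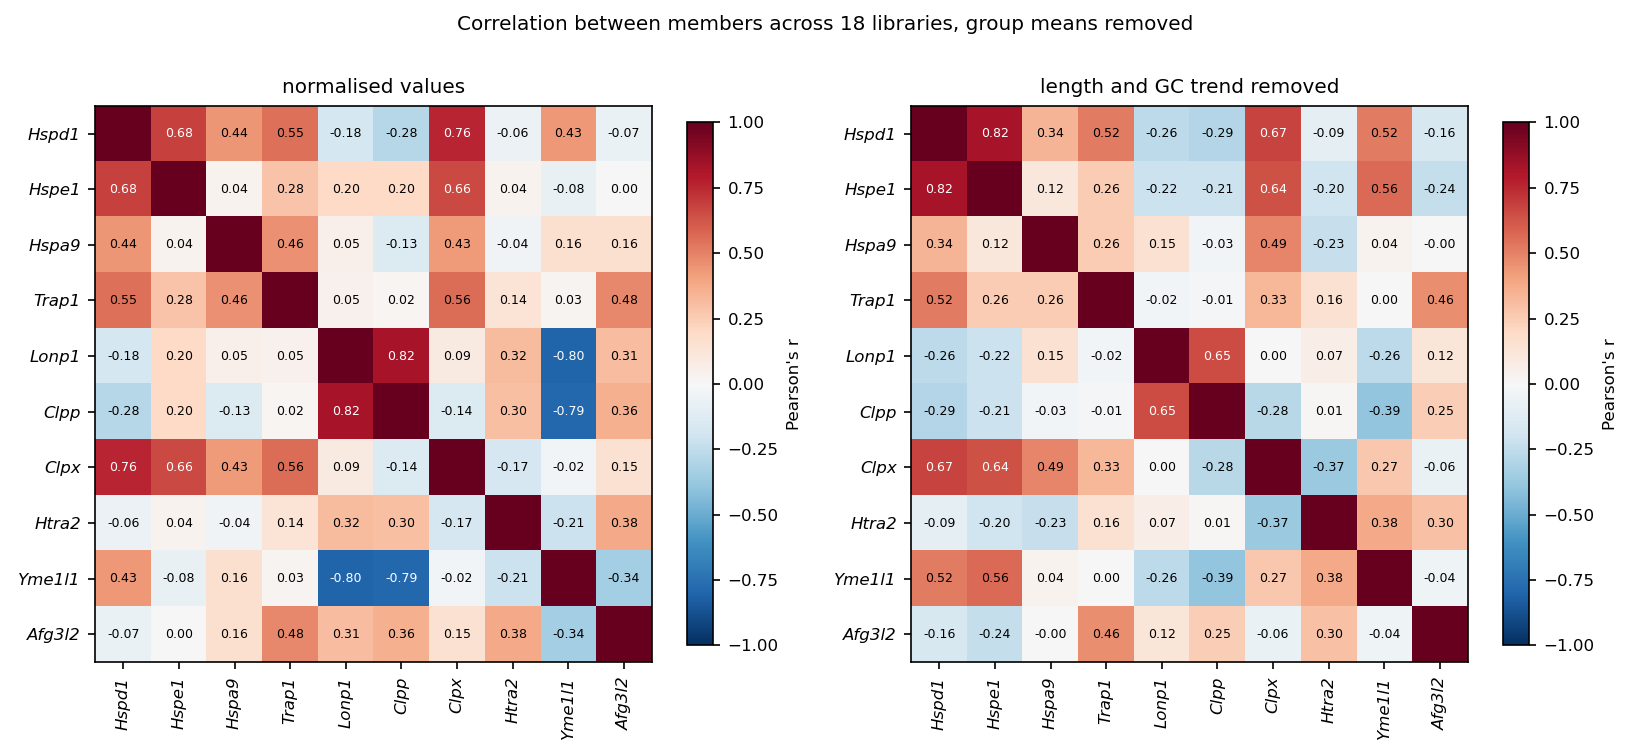
Pearson's r for each pair of members over 18 libraries after removal of group means, from the normalised values (left) and with length and GC trends removed (right). The blue cells of Yme1l1 with Lonp1 and Clpp fade from -0.80 and -0.79 to -0.26 and -0.39, Clpx with Trap1 goes from 0.56 to 0.33, and Hspd1 with Hspe1 from 0.68 to 0.82.

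Across 15245 genes with a mean of at least 50 normalised reads, the 3 genes most like Hspd1 over the 18 libraries were all chaperones of the cytosol. They were Hsp90aa1 (r = 0.92), Dnaja1 (0.91), an Hsp40 partner of Hsp70, and Hsp90ab1 (0.90). Of 18 chaperone genes of the cytosol and endoplasmic reticulum on a chosen list, 9 ranked among the 100 genes most like Hspd1 and 7 among the first 20, and all 18 had a positive r, with a median of 0.63 beside -0.0074 for all genes. Ranks 7 and 14 were Hsph1 and Hspa1b, inducible heat shock genes of the cytosol, although reads of Hspa1b may be shared with its near-identical copy Hspa1a. Ranks 10 and 13 were Calr and Hsp90b1, chaperones of the endoplasmic reticulum. With length and GC trends removed the list median was 0.66. For Hspe1 the same list had 6 genes among its first 100 and a median of 0.59. For Hspa9, the mitochondrial Hsp70, it had 0 among the first 100 and a median of 0.11, and for Lonp1, Clpp, Htra2 and Afg3l2 the medians were -0.068, -0.12, -0.037 and -0.13. Other members lay between: the median was 0.49 for Clpx, with 17 of 18 positive and 2 among its first 100, 0.33 for Trap1, also with 17 positive, and 0.27 for Yme1l1, which was 0.45 with trends removed. On a list of 30 other mitochondrial proteostasis genes, 0 ranked among the first 100 for Hspd1, with a median of 0.067. All these values come from the same 18 libraries and are descriptions.

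The same letters were looked for in the RefSeq windows of those chaperones, of which 15 of 18 had a window. Several have more than 1 window, and some of these overlap. At least 1 match to TTCNNGAA or GAANNTTC was found in 8 of their 21 windows (38.1%), belonging to 7 of the 15 genes, while 15.1% of all windows held 1. Of the 7 listed genes among the 20 most like Hspd1, 5 had a window: Calr and Hsp90b1 held no match in it, and the stretches of the other 3 are shown for comparison with that of the Hspe1 and Hspd1 pair, with the match in capitals, at chr4:40722333-40722362 (plus strand), chr17:34959324-34959353 (minus strand) and chr5:149636351-149636380 (minus strand):
Dnaja1: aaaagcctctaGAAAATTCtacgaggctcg
Hspa1b: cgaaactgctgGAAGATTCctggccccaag
Hsph1: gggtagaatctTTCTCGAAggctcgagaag
The Dnaja1 windows that start at 40722672 and 40722680 on chromosome 4 held no match. A match describes letters and not binding.

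The genes most like the other members were of other kinds. Genes close to Clpp included Rps7 (r = 0.92), a ribosomal protein gene, and Chmp2a, and Lonp1 was closest to Ndufb7 (0.89), a complex I subunit, Ccdc124 and Mdh2, the mitochondrial malate dehydrogenase. Yme1l1 was closest to Cdh11 (0.93), Slc39a12 and Ppp4r3b, which were 0.41, 0.34 and 0.42 with length and GC trends removed. Under that correction Hspd1 was at 0.88 with Hsp90aa1, 0.67 with Dnaja1 and 0.91 with Hsp90ab1. Hspe1 was closest to Ttc41, Lsm3 and Sfrp5, Hspa9 to Tmem150c, Grsf1 and Pla2g7, and genes close to Clpx included Dpp9 and Adgrf4. Trap1 was closest to Wdr70, Tbk1 and Kctd21, Htra2 to Defb42, Tango2 and Clcn7, and Afg3l2 to Gm6560, Coa8 and Mrpl22.

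Further genes of mitochondrial proteostasis were also called in AAV-SIRT3 against intact. Of 30 such genes, 9 were higher and 0 lower in AAV-SIRT3 against intact, with a median of 0.11, where 11.3% of all genes were called higher. The called genes included partners of mortalin, among them Pam16 (0.24, SE 0.054, limma, adjusted p = 0.00376), a subunit of the import motor, and Dnlz (0.22), which keeps mortalin soluble. Others were Afg1l (0.19), Phb2 (0.18), Stoml2 (0.17), Immp1l (0.16), Phb (0.15) and Spg7 (0.15). Phb and Phb2 form the prohibitin scaffold of the inner membrane and Spg7 is the partner of AFG3L2. With the thalamic score as covariate, and without the 3 intact libraries of lowest score, Dnlz and Pam16 alone of the 30 passed. Of 19443 genes, 932 and 871 were called higher under these 2 settings. With length and GC trends removed, 5 of the 30 were called, all higher, where 10.8% of 18855 genes were called higher. The list median was then 0.062, and Phb, Phb2, Stoml2 and Spg7 lost their call.

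A list of mitochondrial import genes, Vdac genes and Cs had 7 of 12 genes higher, 0 lower and a median of 0.15 in AAV-SIRT3 against intact. Of all genes, 11.3% were called higher in this comparison. Whether RNA of this list follows mitochondrial content was not tested. The largest were Tomm40 (0.25, SE 0.047, limma, adjusted p = 0.00141) and Tomm22 (0.23), parts of the entry gate, then Timm17b (0.21) and Vdac2 (0.16). With the thalamic covariate 5 of the 12 passed, where 932 of 19443 genes were called higher. Without the 3 intact libraries 3 did, where 871 of 19443 genes were called higher. With length and GC trends removed 6 did, with a median of 0.12, where 10.8% of 18855 genes were called higher. The members' median of 0.08 was below that of this list, which was not tested.

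Among 10 tested genes of the integrated stress response and the mitochondrial unfolded protein response, of 12 listed, 4 were higher and 0 lower in AAV-SIRT3 against intact. They were the transcription factors Atf5 (0.33, SE 0.074, limma, adjusted p = 0.00423), Atf4 (0.26) and Ddit3 (0.24), and Asns (0.10), the asparagine synthetase that ATF4 induces. Atf4 and Atf5 alone of the 10 passed under the thalamic covariate and without the 3 intact libraries, where 932 and 871 of 19443 genes were called higher. With length and GC trends removed Atf4, Atf5 and Dele1 passed, 2 higher and 1 lower. In that fit 10.8% of 18855 genes were called higher and 7.56% lower. Ddit3 and Asns lost their call under each of these settings. Of the 18 chaperones of the cytosol and endoplasmic reticulum, 3 were higher and 0 lower: Calr (0.20), Cct5 (0.13) and Cct2 (0.11). That is 16.7% of the list, near the 11.3% of all genes called higher, so it is no result about these chaperones. All 4 lists had 0 calls in AAV-SIRT3 against AAV-GFP and in AAV-GFP against intact, where 0.113% and 1.84% of all genes were called, so that few calls could arise in lists of this size.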

How the data were processed

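The deposited table holds one signal per gene and library, which per its name are HTSeq counts that the authors normalised with DESeq2. The submitters' processing notes name HISAT2 2.1.0, DESeq2 1.34.0 and the build mm10, while annotation and strand setting are not given in the sources used here. Per the labels, stranded libraries were sequenced from both ends over 100 bp. All 18 columns were matched to samples by title, and 0 columns were left over. Each column times a size factor of its library gave whole reads within 0.001 read for every value, on weaker evidence for 2 libraries with factors near 1. Median-of-ratios size factors recomputed from the recovered counts deviated from the factors used by at most 3.0e-15 in all 18 libraries. These recovered counts gave the depth, 47182529 to 64728587 reads, and served edgeR 4.0.16 and DESeq2 1.42.0. The reads carry no molecular identifiers, so stated counting errors cover counting alone.

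The main test was limma 3.58.1 in R 4.3.3 on log2(value + 1), which understates changes of low genes. Genes reaching 10 in 6 or more libraries entered, and 1 fit of the 3 groups with a variance trend had 15 residual degrees of freedom. P-values were adjusted by Benjamini-Hochberg over all 19443 genes. Positions, lengths and GC content came from GENCODE M21 (GRCm38, the same assembly as mm10), which matched 49189 of 55270 symbols, and promoters from RefSeq, where 7 members had an entry that could be used. Length and GC trends were removed per library with splines for one of the alternatives. Alternatives were TMM factors, pseudocounts of 0.5 and 10, other filters, edgeR, DESeq2, fits of 2 groups, a replicate block, the thalamic score, array weights, trend removal and leaving out each library. The fit without the 3 intact libraries and the ratio tests were added after seeing the data. The procedure was tested on simulated counts.

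The members and lists were chosen with earlier results of these data known. Named are all members, Sirt3, the called genes of each list up to 8 (proteostasis) or 4 (other lists) by fold change, and the 3 genes most correlated with each member. Some of the last are not reported here. Genes of ranks 7 to 14 for Hspd1 and the shown promoters were chosen after their values were seen.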

Additional observations from a re-analysis of the deposited data

Results flagged for a closer look

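Each of the 10 members was examined in each group for a library far from the other 5, by Dixon's criterion for 6 samples. Of 30 such groups, 1 met it, where chance gives about 1 in 20. Htra2 was 776.7 normalised reads in AAV-SIRT3 replicate 3, the lowest of its group, with the next library at 836.4. The gap was 0.634 of the group's range, above the critical value for 6 samples.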

How the results depend on the processing

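In AAV-SIRT3 against AAV-GFP the members' count was 0 in every alternative, and the member calls that changed in the other comparisons are given in the report or here. The 4 members called in AAV-SIRT3 against intact were 0 with the thalamic covariate and 0 without the 3 intact libraries of lowest score, 3 with all genes above 0 (Hspa9 lost), and 3 to 5 when one library was left out; AAV-GFP against intact gave 0 to 1, and 1 in DESeq2. Over all genes, AAV-SIRT3 against intact had 4214 calls, 1738 with the thalamic covariate, 1686 without the 3 intact libraries, and 3279 to 4633 without one library. AAV-GFP against intact had 358, and 164 with all genes above 0, 199 in a fit of 2 groups, 30 with the thalamic covariate, 638 with array weights, 999 in DESeq2, 10 without the 3 intact libraries, and from 129, with intact replicate 3 dropped, to 686, with AAV-GFP replicate 1 dropped. AAV-SIRT3 against AAV-GFP had 22, and 8 in a fit of 2 groups, 121 with array weights, 47 with trends removed, 311 in DESeq2, and 5 (without AAV-SIRT3 replicate 5) to 861 (without AAV-GFP replicate 2). With a replicate block that count was 13, and of the members Hspa9 lost its call (0.090, limma, adjusted p = 0.0562), leaving 3. Replicate numbers did not pair the samples: r of the deviations was over 0.1 in 1 of 18 same-numbered pairs, and a library correlated best with its own number in 2 of 36 cases. Values near 0 changed sign, and the cause was not tested. With trends removed, Trap1 was -0.0087 and Yme1l1 0.045 in AAV-SIRT3 against AAV-GFP. Hspd1 in AAV-SIRT3 against intact was -0.020 with the thalamic covariate and -0.0093 without the 3 intact libraries. Without one library, signs turned for Htra2 (-0.079 to 0.0013), Trap1 (-0.021 to 0.031) and Yme1l1 (-0.045 to 0.016) in AAV-SIRT3 against AAV-GFP, and for Hspd1 (-0.0053 to 0.034) and Yme1l1 (-0.014 to 0.046) in AAV-SIRT3 against intact. No member was limited by depth.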
